A study of Mus musculus with 18 samples.

Results

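CLK chromatin immunoprecipitation (ChIP) on sonicated mouse liver chromatin is described here at ZT06 and ZT22, with attention to the shape, width, symmetry and reach of the mean profile around CLK:BMAL1 sites. The libraries were chosen by name, as those of CLK ChIP on sonicated chromatin, and they are 6 of the 18 libraries of the series: 3 from ZT06 and 3 from ZT22. ZT counts hours from lights on, so ZT06 lies in the light phase and ZT22 in the dark phase. All livers came from adult C57BL/6 mice aged 3 to 6 months, labelled WT, that had lived in 12 h of light and 12 h of darkness for at least 2 weeks. Formaldehyde-crosslinked nuclei were frozen, thawed and sheared by sonication before precipitation with a goat polyclonal antibody against CLK. The 6 inputs of the same kind of chromatin, 3 for each time, received no antibody and serve as background. Libraries carry the mouse numbers 28, 29 and 30 at both times. The series text says that both times came from the same mice, whereas the protocol describes collecting the liver, so libraries were treated as separate samples at each time.

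CLK (CLOCK) and BMAL1 form a heterodimer of the basic helix-loop-helix PAS family that binds E-box sequences. In liver the pair drives transcription of the Per and Cry genes, whose protein products in turn repress it, and of many genes of metabolism. Binding of the pair to its sites in liver is known to be rhythmic, with its peak in the light phase. In a ChIP profile of sonicated chromatin the height above the surroundings reflects how often a site was recovered, and the width depends also on the length of the sheared fragments.

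The deposited profiles are means over sites, so each value below belongs to 1 library and 1 set of sites and no single locus can be given a value. One set, called all sites here, covers by its name 1 site fewer than the 3217 sites of the deposited site table. The other is named for the top 400 sites, which are 12.4% of the first. The median peak width in the site table is 309 bp. No source used here states on which libraries or at which time the sites were called. The differences between the times below therefore describe these sites, and were not tested on a list known to be independent of these libraries. Each profile holds successive positions over 3 kb, taken as 10 bp apart and centred on the site's midpoint. The deposited signal of the 6 ChIP libraries ranged from 1.07 to 22.9. The centre is the 21 positions within 100 bp of the midpoint, the shoulders lie 150 to 300 bp away, and the flanks are the 100 positions at least 1000 bp away. No source used here states how libraries were scaled against each other. Signal was therefore read mainly as a fold over the flanks of the same library, a ratio that no scaling factor of a library can change.

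The depth of the libraries was uneven at ZT22. Mean profiles moved in whole steps, and the step gives the signal that 1 read at 1 site was worth: 3.60, 2.86 and 3.89 in mice 28, 29 and 30 at ZT06, and 3.08, 0.683 and 8.90 at ZT22. In these terms 7233, 9305 and 7928 reads lay over the midpoints of all sites at ZT06, against 3336, 15340 and 1842 at ZT22. The ZT22 library of mouse 29 was thus the deepest of the ChIP libraries and had a step in the range of the inputs (0.568 to 0.949), and that of mouse 30 was the shallowest. The ZT22 library of mouse 29 also had the smallest distance to background: within 500 bp its log2 profile at all sites differed from that of its own input by 0.0593 (root mean square), compared with 0.104 for mouse 28 and 0.346 for mouse 30. This distance includes the scatter between positions and is not a measure of shape alone. In the flanks that scatter was 5.25, 3.20 and 8.70% (SD, percent of the flanks) in mice 28, 29 and 30 at ZT22. The ZT22 libraries of mice 29 and 30 stood on either side of mouse 28 in most ratios below, with mouse 29 low and mouse 30 high, and results are therefore also given without each of them. How far depth contributed to their distance from each other was not tested. Counting alone gave the log2 fold of centre over flanks a standard error of 0.0063 to 0.021 at all sites and 0.017 to 0.048 at the top sites. Such errors and the intervals below cover counting only, since reads are not independent molecules.

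At ZT06 all 3 libraries rose to a peak at the midpoint that stood about 3-fold above their flanks, and at ZT22 the rise was smaller in every library. Over all sites the central signal was 7.83, 7.64 and 8.89 in mice 28, 29 and 30 at ZT06, and 3.02, 3.28 and 4.16 at ZT22. The signal in the flanks was 2.53, 2.50 and 2.69 at ZT06 and 2.28, 2.73 and 2.38 at ZT22. The times were thus apart at the centre and overlapped in the flanks. The fold of centre over flanks was 3.10, 3.05 and 3.31 at ZT06 (3.15 ± 0.14, SD, n = 3) and 1.33, 1.20 and 1.75 at ZT22 (1.42 ± 0.29). The 2 groups did not overlap, and the lowest ZT06 library lay above the highest ZT22 library. On the log2 scale the ratio was higher at ZT06 by 1.16 ± 0.17 (SE), which is 2.24-fold, with p = 0.1 by exact permutation (two-sided), the lowest that 3 against 3 libraries can reach, and an adjusted p of 0.21 among 38 such tests. Because of that limit no difference tested this way can pass 0.05, and 18 of the 38 differences had groups that did not overlap. Without the ZT22 library of mouse 29 the log2 difference was 1.05, and without that of mouse 30 it was 1.32.

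**Figure D1:**
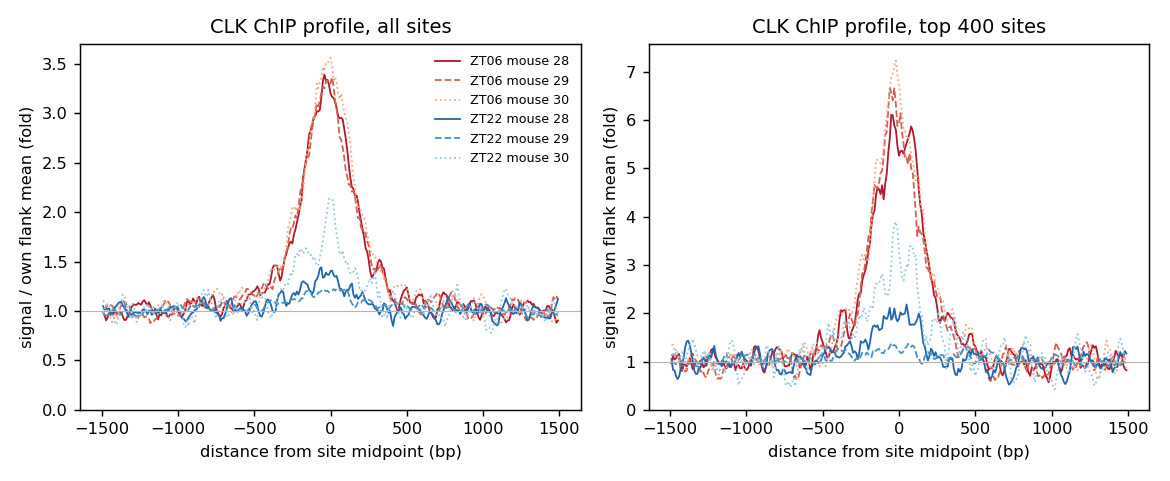
Mean CLK ChIP profiles on sonicated chromatin, as signal over the mean of the same library's flanks (y axis, fold) against distance from the site midpoint (x axis, bp), for all sites and for the top 400 sites. Each line is 1 library; the 3 ZT06 libraries (reds) lie close together, while at ZT22 (blues) mouse 30 rises above mice 28 and 29.

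At the top 400 sites the ratios were larger, and the groups were again apart. The fold of centre over flanks was 5.48, 5.71 and 6.13 at ZT06 (5.77 ± 0.33, SD, n = 3) and 1.93, 1.28 and 3.06 at ZT22 (2.09 ± 0.90). Every ZT06 library was above every ZT22 library, and the spread at ZT22 was wider than at ZT06. The log2 difference was 1.56 ± 0.37 (SE), or 2.94-fold, with p = 0.1 in the exact permutation test. It was 1.25 without the ZT22 library of mouse 29 and 1.88 without that of mouse 30.

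Inputs measured in the same way held a small central rise of like size at both times. At all sites the input fold of centre over flanks was 1.29, 1.24 and 1.27 at ZT06 and 1.28, 1.19 and 1.22 at ZT22. In log2 terms the times differed by 0.04 ± 0.04 (exact permutation, p = 0.4), and over the top sites it was 0.07 ± 0.06 (p = 0.4, same exact test). After division by the own input, the central fold at all sites was 2.39, 2.47 and 2.61 at ZT06 and 1.03, 1.01 and 1.43 at ZT22. The ZT22 libraries of mice 28 and 29 therefore stood within 5% of their input at the centre of all sites, and mouse 30 stood above its input. For the top sites the same ratio was 3.98, 4.31 and 4.56 at ZT06 and 1.39, 1.06 and 2.43 at ZT22, so that mouse 28 also rose above its input there. The log2 difference between the times was 1.12 ± 0.17 (SE) over input at all sites and 1.48 ± 0.36 at the top sites, without overlap of the groups in either set.

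**Figure D2:**
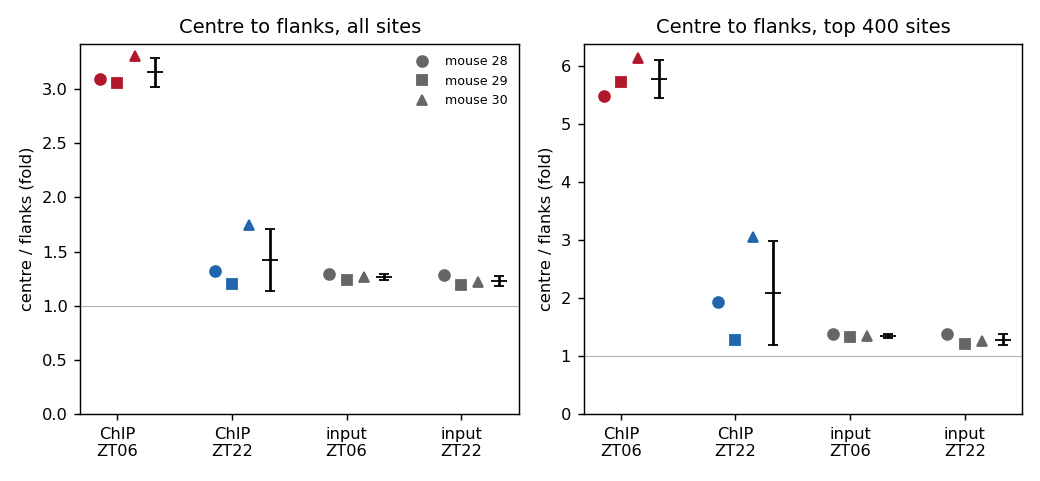
Fold of the central signal over the flanks (y axis) in each library, for CLK ChIP and input at ZT06 and ZT22, at all sites and at the top 400 sites; symbols mark the mouse number and black bars the mean ± SD of 3 libraries. The ZT06 ChIP libraries lie above 3 at all sites and above 5 at the top sites, and the ZT22 library of mouse 29 lies at the level of the inputs.

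The shoulders of the peak differed with the time as well, by less than the centre. At all sites the shoulder signal was 1.85, 1.89 and 1.97 times the flanks at ZT06 and 1.15, 1.10 and 1.39 times at ZT22. The groups did not overlap, and the log2 difference was 0.66 ± 0.11 (SE), or 1.58-fold (exact permutation test, p = 0.1). The shoulders of the top sites were 2.79, 2.87 and 3.09 times the flanks at ZT06 and 1.27, 1.11 and 1.81 times at ZT22, again without overlap, a difference of 1.09 ± 0.21 or 2.13-fold. Leaving out the ZT22 library of mouse 29 or of mouse 30 moved these differences to 0.59 and 0.76 at all sites and to 0.94 and 1.29 at the top sites.

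Dividing the centre by the shoulders measures how pointed a peak is, without the flanks. At all sites its log2 value was 0.74, 0.69 and 0.75 at ZT06 and 0.21, 0.12 and 0.33 at ZT22. The ZT06 libraries were the more pointed in every case, by 0.51 ± 0.06 (SE) or 1.42-fold, and the groups did not overlap. The top sites had 0.97, 0.99 and 0.99 at ZT06 and 0.60, 0.20 and 0.76 at ZT22, a difference of 0.46 ± 0.17. This difference fell to 0.31 at the top sites without the ZT22 library of mouse 29, and at all sites it was 0.46 without it and 0.56 without that of mouse 30. Since a uniform background under the peak lowers this ratio, it does not separate a blunter peak from a lower one.

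To set the shapes side by side, the excess of each ZT22 library over its flanks within 500 bp was expressed as a percentage of the mean ZT06 excess, by a least-squares fit through the origin. At all sites the ZT22 excess was 15.1, 9.82 and 35.4% of that at ZT06 in mice 28, 29 and 30. The inputs of the same ZT22 samples gave 13.7, 8.51 and 10.3%, and the ZT06 inputs 11.7 to 13.6%. Mice 28 and 29 at ZT22 thus lay close to their inputs, and mouse 30 lay well above. The ZT22 excess of the top sites was 18.9, 5.85 and 43.2% and that of the inputs 9.30, 4.25 and 5.67%. For comparison, each ZT06 library had 93.7 to 110% of the mean excess of the other 2 mice at all sites. The mean ZT22 percentage of 20.1 at all sites and 22.7 at the top sites rested on mouse 30: without it the means were 12.5 and 12.4, and without mouse 29 they were 25.3 and 31.1.

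The ZT06 peak had nearly the same width in the 3 libraries. At 50% of its height over the flanks it was 343, 357 and 333 bp wide at all sites (344 ± 12, SD, n = 3), with its left edge at -187.3 ± 12.7 bp from the midpoint and its right edge at 156.7 ± 1.0 bp. At ZT22 the same measure gave 179.4, 327.3 and 135.8 bp (214.1 ± 100.4), all below the ZT06 libraries (exact permutation test, p = 0.1). That separation was lost when the profiles were first smoothed over 5 positions: the widths were then 356, 352 and 340 bp at ZT06 and 367, 398 and 153.6 bp at ZT22, and 2 of the ZT22 libraries were the widest of the 6 (exact permutation test, p = 1). The difference fell from 130 to 42.7 bp on smoothing. The height itself was 36.5 to 43.4 times the SD of the flank positions at ZT06 and 6.99 to 13.1 times at ZT22, so the ZT22 widths were read from peaks much nearer to the scatter between positions.

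For the top sites the width at 50% of the height was 354.6, 300.9 and 321.5 bp at ZT06 (326 ± 27, SD, n = 3) and 332.0, 104.4 and 190.9 bp at ZT22. The groups overlapped (exact permutation test, p = 0.3), and after smoothing the widths were 320.9 to 367.3 bp at ZT06 and 283.7 to 340.9 bp at ZT22. Nearer the foot, at 25% of the height, the ZT06 peak at the top sites was 512.3, 498.5 and 522.7 bp wide and the ZT22 peak 367.2, 298.8 and 431.0 bp, without overlap. At all sites the widths there were 526, 549 and 549 bp and 491, 579 and 461 bp and overlapped. Nearer the summit, at 75% of the height, the top sites gave 206.3, 138.4 and 141.6 bp at ZT06 and 64.5, 49.1 and 51.2 bp at ZT22, without overlap, whereas all sites gave 233.2, 184.6 and 224.8 bp and 130.8, 207.7 and 69.6 bp, with overlap. These widths are unsmoothed, and whether the groups at the top sites stay apart after smoothing is not given here. The mean height there was 37.6 times the SD of the flank positions at ZT06 and 7.69 times at ZT22.

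A measure of width that uses no threshold is the summed excess within 500 bp divided by the mean excess at the centre, within 100 bp of the midpoint. At ZT06 it was 454, 455 and 457 bp at all sites (455 ± 1.82, SD, n = 3). At ZT22 it was 439, 551 and 462 bp, with values on both sides of those at ZT06. Over the top sites it was 453, 429 and 454 bp at ZT06 and 419, 564 and 480 bp at ZT22. The highest position at all sites lay 40 bp before, 10 bp after and exactly at the midpoint at ZT06, and 60 bp before, 40 bp after and at the midpoint at ZT22, so the summits lay within 60 bp of the midpoint at both times.

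How closely the excess was gathered around the midpoint could not be told apart between the times. At ZT06, 42.9 ± 0.63% (SD, n = 3) of the excess at all sites lay within 100 bp of the midpoint, 69.3 ± 1.7% within 200 bp, 82.8 ± 1.0% within 300 bp and 92.97 ± 1.0% within 500 bp. The ZT22 means were 39.4 ± 8.5, 63.8 ± 14, 79.2 ± 15 and 89.2 ± 9.5%. Within 200 bp the single libraries held 70.99, 69.4 and 67.5% at ZT06 and 75.02, 48.1 and 68.2% at ZT22. The groups overlapped at each of the 4 distances in both sets of sites, with exact permutation p between 0.7 and 1. Within 200 bp at all sites the ZT22 library of mouse 29 lay below the ZT06 range, and without it the sign of all 8 differences turned: within 200 bp the difference went from 5.56 to -2.27 percentage points at all sites and from 8.69 to -3.47 at the top sites.

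The time difference was followed along the whole 3 kb with limma, fitted to log2 of the signal over the own flanks at every position of the 6 libraries. At all sites 88 positions, 29.4% of those tested, were higher at ZT06 at a Benjamini-Hochberg adjusted p under 0.05, and 1 position (0.334%) was lower, which makes 29.8% in either direction. All 21 central positions were among those higher. Of the 88, 81 formed an unbroken stretch from 420 bp before to 380 bp after the midpoint, 800 bp in all, more than the width of the peak at 25% of its height. Of the 7 positions higher outside the stretch, 5 lay within 500 bp of the midpoint and 2 next to each other about 940 bp before it, and the lower position lay 1140 bp after it, in the flanks. The largest difference was 1.26 ± 0.09 (limma SE) on the log2 scale, 90 bp before the midpoint, and the midpoint itself differed by 1.13 ± 0.15. These SEs draw also on the spread at other positions, so they can lie below the spread between libraries at the centre. The log2 fold of centre over flanks had a SE of 0.17 between libraries. Neighbouring positions share reads, so the share describes how far the difference extended and is not a number of independent findings. The stretch ran from 310 bp before to 370 bp after the midpoint without the ZT22 library of mouse 29, and from 480 bp before to 380 bp after without that of mouse 30.

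At the top sites 65 positions, 21.7% of those tested, were higher at ZT06 by the same limma fit and none (0.0%) was lower. At an unadjusted p under 0.05, 85 positions were higher and still 0 lower. The unbroken stretch ran from 290 bp before to 330 bp after the midpoint, 63 positions, again with all 21 central positions, and the others called lay 370 and 740 bp after it. The largest difference, 1.72 ± 0.24 (SE), lay 50 bp before the midpoint. That SE is 1 value shared by all positions, whereas the log2 fold of centre over flanks had a SE of 0.37 between libraries. The difference was thus larger at the top sites and the stretch of called positions shorter, and the flank positions of single libraries varied more there, with an SD of 15.1 ± 1.9% of the flanks at ZT06 against 6.00 ± 0.48% at all sites. Without the ZT22 libraries of mice 29 and 30 in turn, 25.1 and 28.1% of the positions were called.

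**Figure D3:**
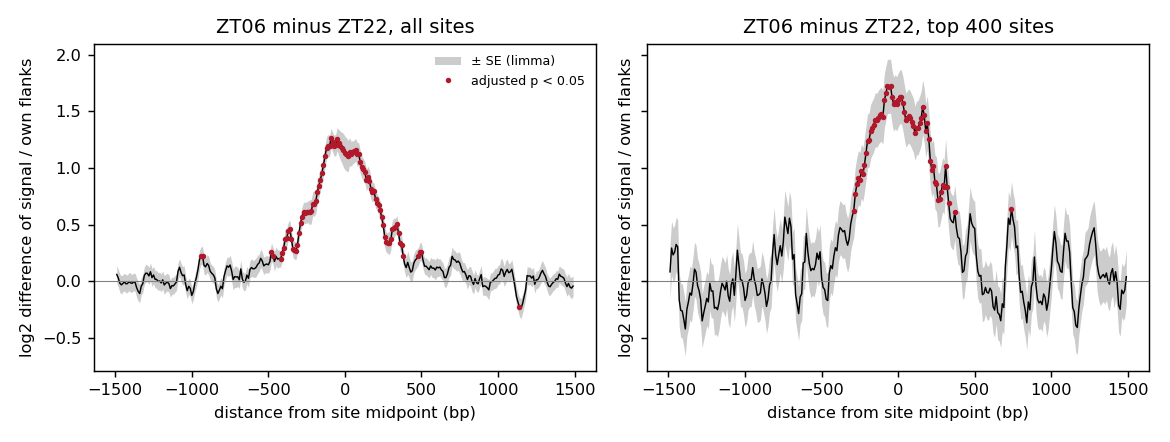
Difference of log2 signal over own flanks, ZT06 minus ZT22 (y axis), against distance from the midpoint (x axis, bp), at all sites and at the top 400 sites. The band is ± the limma SE over 6 libraries, which at the top sites is 1 value shared by all positions. Red points have an adjusted p under 0.05. Most called positions lie in an unbroken stretch around the midpoint, from 420 bp before to 380 bp after it at all sites and from 290 bp before to 330 bp after it at the top sites, and outside it lie 7 higher and 1 lower positions at all sites and 2 higher ones at the top sites.

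Bins of 100 bp on each side showed how the difference faded with distance. At all sites the mean fold over the flanks on the left was 3.25 at ZT06 and 1.43 at ZT22 in the first bin (10 to 100 bp), 2.54 and 1.33 at 110 to 200 bp, and 1.81 and 1.21 at 210 to 300 bp. Further out it was 1.39 and 1.09 at 310 to 400 bp and 1.21 and 1.05 at 410 to 500 bp. The right side fell in the same way, with 3.03 and 1.41, 2.24 and 1.22, 1.61 and 1.15, 1.32 and 1.03, and 1.16 and 1.03 over the same distances. ZT06 lay above ZT22 without overlap in 13 of the 30 bins (43.3%), which were all 10 bins within 500 bp and 3 of 10 from 500 to 1000 bp, and no bin showed the reverse (0.0%). Over the own input this held in 10 bins (33.3%), 9 of them within 500 bp. For the top sites it held in 11 of 30 bins (36.7%), which were 8 of 10 within 500 bp, 2 of 10 from 500 to 1000 bp and 1 of 10 beyond 1000 bp, among the flanks used as reference (right side, 1210 to 1300 bp, mean fold 1.10 at ZT06 and 0.90 at ZT22). Over the own input it held in 8 (26.7%), with 1 bin in the other direction (3.33%). With only 2 ZT22 libraries, whose range is narrower, ZT06 was higher in 16 bins at all sites without mouse 29 (and lower in 2) or without mouse 30, and in 12 and 15 bins at the top sites (lower in 3 and 2).

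The difference at all sites narrowed over the outer part of the called stretch and beyond it. From 310 to 400 bp, a window largely inside that stretch, the fold over the flanks was 1.37, 1.33 and 1.37 at ZT06 and 1.05, 1.07 and 1.06 at ZT22. From 410 to 500 bp it was 1.17, 1.16 and 1.22 at ZT06 and 1.00, 1.05 and 1.06 at ZT22. Averaged from 510 to 990 bp it was still 1.06, 1.07 and 1.09 at ZT06 (1.08 ± 0.02, SD, n = 3) and 1.01, 1.03 and 1.03 at ZT22 (1.02 ± 0.01). The groups did not overlap in any of these windows, with or without division by the own input, whose fold from 510 to 990 bp was 1.03 ± 0.01 at ZT06 and 1.02 ± 0.01 at ZT22. In the outermost of them 3 libraries with 6 to 9% above the flanks thus stood beside 3 with 1 to 3%. Other sites lay in reach of this window: 130 sites (4.04%) had another site's midpoint 510 to 990 bp away, and 500 sites (15.5%) had one within 1500 bp, in 323 pairs. Their part in the outer signal was not tested. For the top sites the fold from 510 to 990 bp was 1.03 ± 0.06 at ZT06 and 1.00 ± 0.05 at ZT22, and the groups overlapped.

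The flanks of the top sites themselves carried a difference between the times that a reference to the own flanks removes. Within a library, the flank signal of the top sites was 1.24, 1.22 and 1.18 times that of all sites at ZT06 (1.21 ± 0.03, SD, n = 3) and 1.11, 1.02 and 1.06 times at ZT22 (1.06 ± 0.04). The ZT06 libraries were all above the ZT22 libraries, and the ratio was higher by 0.19 ± 0.04 (SE) in log2 (exact permutation, p = 0.1). It was higher by 0.16 without the ZT22 library of mouse 29 and by 0.19 without that of mouse 30. In the inputs the ratio was 0.983 to 1.05 and the times differed by 0.02 in log2 (exact permutation, p = 0.6). Even in the outermost part of the region, over 1200 bp from the midpoint, the ratio was 1.25, 1.22 and 1.21 at ZT06 and 1.12, 1.01 and 1.11 at ZT22, again without overlap, and the inputs overlapped there. When limma was run on the top sites over the flanks of all sites of the same library, a comparison added after these values were seen, 97 positions (32.4%) were higher at ZT06 and none was lower. Of them 71 formed the stretch around the midpoint, from 310 bp before to 390 bp after, 12 lay 500 to 1000 bp away and 4 of 100 in the flanks, where the median difference was 0.19 and 82 of the 100 positions lay above 0. The shorter stretch at the top sites therefore depended in part on the choice of their own flanks as the reference.

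Left and right sides of the profile were compared at equal distance, the left being the side of the first deposited positions. No source used here says how that side lies relative to genes or to the genome. From 110 to 300 bp the left side was the higher in all 6 ChIP libraries and in both sets of sites. At all sites the log2 ratio of left to right was 0.19, 0.22 and 0.12 at ZT06 and 0.06, 0.05 and 0.18 at ZT22. Over the top sites it ranged from 0.06 to 0.24 over the 6 libraries. In the inputs it was -0.01 to 0.09 at all sites, above 0 in 5 of 6 libraries, and above 0 in 3 of 6 at the top sites. Closer in, from 10 to 100 bp at all sites, the left was the higher in 4 of 6 ChIP libraries and in 6 of 6 inputs. From 110 to 300 bp the times overlapped, with a difference of 0.08 ± 0.05 (SE) at all sites (exact permutation test, p = 0.2) and 0.02 ± 0.06 at the top sites (p = 0.7, same exact test).

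As folds over the flanks, the left shoulder at all sites stood at 1.96, 2.02 and 2.06 at ZT06 and the right shoulder at 1.74, 1.76 and 1.87. The ZT22 libraries had 1.18, 1.12 and 1.48 on the left and 1.11, 1.08 and 1.30 on the right. The left side was thus the higher in each library, and both sides differed with the time without overlap. At the top sites the left shoulder stood at 2.95, 3.07 and 3.29 at ZT06 and 1.39, 1.12 and 1.98 at ZT22, and the right at 2.63, 2.66 and 2.89 and at 1.15, 1.10 and 1.64.

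**Figure D4:**
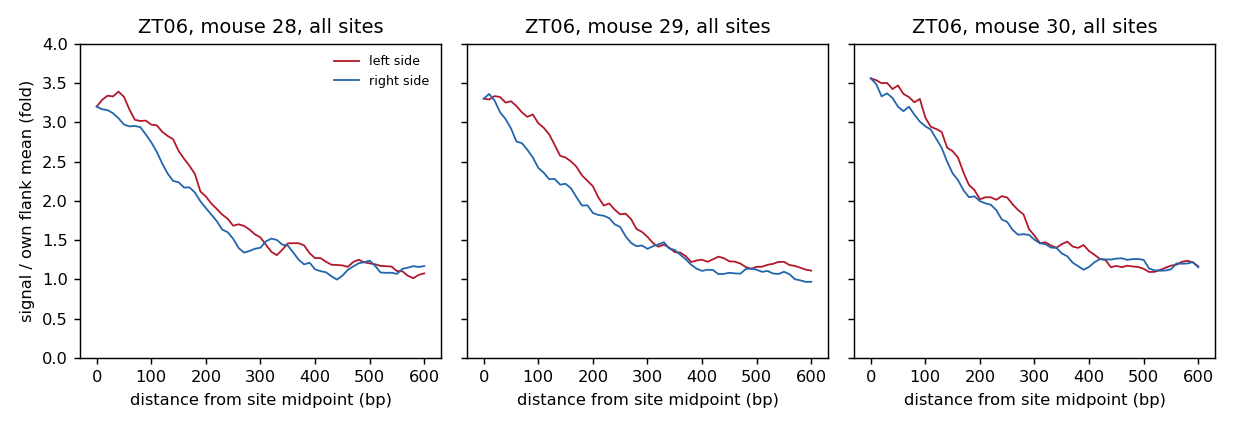
Signal over own flanks (y axis, fold) on the left and right of the midpoint against the distance from it (x axis, bp), for the 3 ZT06 libraries at all sites. The left line runs above the right line over most of the shoulder, and beyond 300 bp the lines cross, with the left again the higher around 400 bp.

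In each ChIP library the axis of symmetry over all sites lay to the left of the midpoint. The axis about which the profile within 600 bp was most symmetric was at -19.03, -24.76 and -11.94 bp from the midpoint at ZT06 and at -24.61, -27.59 and -9.75 bp at ZT22. It was on the left in 6 of 6 libraries, with mean -19.6 bp, and overlapped between the times. When sides were taken from that axis, the log2 ratio of left to right from 110 to 300 bp at all sites was -0.01, -0.01 and 0.00 at ZT06 and 0.04, 0.01 and 0.15 at ZT22. The axis is fitted to the same profile, so these ratios describe what a shift leaves over: nothing above 0.01 in the ZT06 libraries, and 0.15 in the ZT22 library of mouse 30. The inputs' axes at all sites spread from -45.8 to 17.5 bp, on the left in 4 of 6, and their mean of -19.7 bp was close to that of the ChIP libraries. At the top sites the ChIP axes lay from -25.9 to 18.1 bp. Axes were taken at a resolution set by positions 10 bp apart, and a mean shift of this size is small beside the median peak width of 309 bp.

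Farther out the sides were nearly equal at all sites, and less so at the top sites. From 310 to 1000 bp the left was the higher in all 6 ChIP libraries at all sites, by 0.02 to 0.05 on the log2 scale. At the top sites it was the higher in 5 of 6, and the log2 ratio of left to right ranged from -0.0012 to 0.16. In the flanks of the top sites, over 1000 bp away, the ratio was -0.07, -0.17 and 0.03 at ZT06 and 0.04, 0.05 and 0.13 at ZT22. These groups did not overlap, by a margin of 0.01, and the difference was -0.14 ± 0.07 (SE; exact permutation test, p = 0.1).

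The strength of a site was compared with the time effect through the top and the remaining sites of the same library. The profile of the remaining sites was computed from both means and the numbers of sites in their names. Its fold of centre over flanks was 2.66, 2.58 and 2.82 at ZT06 and 1.23, 1.19 and 1.55 at ZT22, so the times were apart without the top sites as well. The fold at the top sites was 2.06, 2.22 and 2.17 times that at the remaining sites at ZT06 (2.15 ± 0.08, SD, n = 3) and 1.57, 1.08 and 1.98 times at ZT22 (1.54 ± 0.45). The top sites stood out the more at ZT06, without overlap, though the ZT22 library of mouse 30 came close to the ZT06 range. Against all sites the top sites' log2 ratio was higher by 0.82, 0.90 and 0.89 at ZT06 and by 0.54, 0.09 and 0.81 at ZT22, a difference of 0.39 ± 0.21 (SE; exact permutation test, p = 0.1). This difference depended on the ZT22 library: it was 0.20 without that of mouse 29 and 0.56 without that of mouse 30. Of the summed central excess of all sites, the top sites held 32.9, 34.9 and 32.5% at ZT06 and 39.3, 17.6 and 36.5% at ZT22. The share was thus nearly constant at ZT06 and lay on both sides of that level at ZT22. No source used here says how the top sites were chosen, and if they were ranked on these libraries their larger ratio is a description. The same limit holds for the remaining sites, since how the whole list was called is not stated either.

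At the midpoint of all sites the ZT22 signal, with its 95% Poisson interval for counting error, was 3.20 (3.09 to 3.31) in mouse 28, 3.26 (3.21 to 3.31) in mouse 29 and 5.10 (4.87 to 5.34) in mouse 30. The ZT06 signal was 8.11 (7.92 to 8.29), 8.27 (8.10 to 8.44) and 9.58 (9.37 to 9.80).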

How the data were processed

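CLK ChIP and input libraries of sonicated liver chromatin were compared through mean profiles. The authors deposited these as signal per position. Per the submitters' processing notes CASAVA 1.7, Bowtie and build mm9 were used; fragment extension, filtering, scaling and peak calling are not given in the sources used here. Of the 52 deposited profiles, 16 carry 8 names of libraries outside the sample list and were not used. Groups come from sample titles.

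Ratios, widths and symmetry were computed with Python 3.11.15, numpy 2.4.6, scipy 1.17.1 and pandas 2.3.3, and compared by exact two-sided permutation tests, Benjamini-Hochberg adjusted over 38 differences. Positions were fitted with limma 3.58.1 in R 4.3.3 on log2(signal / own flank mean), without a pseudocount or a mouse block. The fit was run on simulated profiles modelled on all sites, with equal scatter at all positions of a library. That run does not cover the top sites or a scatter that is larger at the centre. For the top sites limma shrank the variances fully to 1 shared value. Replicates are numbered livers, and the permutation tests compare values between them. At all sites the limma p-values draw on the spread between libraries at each position and on that of the other positions. At the top sites they rest on the shared value alone, not on the spread at each position. Depth was read from the steps of the profiles: multiplied by the number of sites, 100% of the top-site values were whole multiples within 0.15 of a step. Increments of all 24 profiles were most negatively correlated at a lag of 50 bp.

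The libraries, windows, lists and tests were chosen with earlier results of these data known. Profiles hold no genes, so the rule for named genes selects none, and site sequences are not shown because no genome of build mm9 was used here. Alternatives changed the reference, flank and centre windows, smoothing, threshold, variance model, spacing and libraries. Because values are means over sites, tests run on positions and not on sites.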

Additional observations from a re-analysis of the deposited data

How the results depend on the processing

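Of 315 alternatives to the 38 differences between the times, 23 turned the direction, in 15 differences, and the rest kept it. The differences of centre, shoulders and flanks kept their direction under every alternative run, with and without input, and so did that of the top sites over all sites. Part of this was fixed in advance. The groups of these differences did not overlap, so leaving out a library could not turn them. A replicate block leaves any mean difference as it is, here and among the 315. The flank window does not enter the ratio of centre to shoulders. Direction could thus turn only with other windows in the remaining ratios, or with the remaining sites as reference. At the top sites the share of called positions rose from 21.7 to 36.1% with log2(signal + 1) on the deposited scale. Smoothing turned the width at 25% of the height at all sites to -23.2 bp. About the mirror axis, the left-right differences turned to -0.070 (110 to 300 bp) and -0.016 (310 to 1000 bp) at all sites, and to -0.11 and -0.022 at the top sites. With each library left out in turn, called positions ranged from 24.4 to 34.4% at all sites and from 18.4 to 28.1% at the top sites. Other differences turned when a library was left out. Left to right, they ranged from -0.0018 to 0.012 (310 to 1000 bp) and -0.022 to 0.018 (over 1000 bp) at all sites, and from -0.021 to 0.061 (110 to 300 bp) and -0.029 to 0.053 (310 to 1000 bp) at the top sites. The mirror axis at all sites ranged from -1.39 to 7.52 bp. The percentage of the excess within 100, 200, 300 and 500 bp ranged from -1.31 to 6.81, -2.27 to 11.2, -5.07 to 8.75 and -1.60 to 7.36 points at all sites, and from -3.73 to 10.6, -3.47 to 20.8, -3.16 to 21.5 and -8.00 to 10.7 at the top sites. The cause was not tested.

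With the mouse number as a replicate block, limma called 30.8% of positions at all sites and 21.1% at the top sites. The mean of the paired differences equals the difference of the group means by construction, so its size could not change. The exact sign-flip test on the pairs gave p = 0.25 at best. Same-numbered libraries deviated together with correlations of 0.17, -0.02 and 0.18 at all sites and 0.03, -0.13 and 0.13 at the top sites. The best match had the same number for mice 28 and 30 at all sites and for mouse 30 at the top sites. With 3 libraries a group these values cannot show whether same-numbered libraries share a mouse. The numbers were not taken to pair the samples. The 3 libraries a group, an unknown scaling and the depth of the ZT22 libraries limit what these profiles can resolve.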
